A study of Mus musculus with 6 samples.

Results

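The heat shock proteins, the J-proteins and the subunits of the chaperonin TRiC that were counted in mouse macrophages are described here, 57 genes of the 41972 entries of the count table. They are the protein-coding entries whose gene symbols belong to the Hsp, Dnaja to Dnajc or Cct2 to Cct8 series and that held at least 60 counts over the 6 libraries. Members were chosen by symbol, protein-coding label and that minimum, less 4 genes named at the end of this paragraph. The choice was made with earlier results of these data known. Of 74 symbols that fit the pattern, 17 fell under the minimum. The 17 included the small heat shock proteins Hspb1, with 9 counts in all, and Hspb8, with 0. All 57 passed the filter on low counts used for testing. Hspa5, Hsp90b1, Dnajb9 and Dnajc3, 4 major chaperones of the endoplasmic reticulum (ER), were left out by the rule and are given once for comparison.

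The study measured poly(A) RNA of bone-marrow-derived macrophages by sequencing and asked how these cells respond to vesicles shed by the mould Aspergillus flavus (extracellular vesicles, EVs). A first group received EVs from the A. flavus strain labelled LD-F1_b and another EVs from the strain labelled LD-F1. Both kinds of EVs were given at 20 µg per well for 6 h, and the remaining group received PBS for the same 6 h. Each of the 3 groups has 2 libraries, which the labels call biological replicates, so the p-values measure the spread between these samples. All groups share the same kind of cells: marrow of wild-type male C57BL/6 mice aged 6 weeks, grown for 6 days with 20% serum and 30% medium conditioned by L-929 fibroblasts, a source of the macrophage growth factor M-CSF. What the suffix of LD-F1_b stands for and how many mice gave marrow are not stated in the labels.

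Chaperones bind unfolded proteins and help them reach or keep their folded form. HSP70 proteins do so in cycles of ATP hydrolysis that J-proteins start and that HSP110 proteins and other exchange factors reset, HSP90 acts later on kinases and receptors, and TRiC encloses actin, tubulin and other substrates in a barrel of paired rings. Heat and other proteotoxic stress of the cytosol raise many cytosolic members through heat shock factor 1, whereas stress of the ER raises another set through the unfolded protein response, which is known in macrophages that respond to microbial products.

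Libraries held 13722215 to 15277997 counts, of which the 57 genes took 1.22% and 1.23% with LD-F1_b EVs, 1.24% and 1.32% with LD-F1 EVs, and 1.19% and 1.21% with PBS. Levels are given as CPM (counts scaled to a common library size), with the library's TMM-normalised total as its size. A count of 3 in a library corresponded to 0.189 to 0.225 CPM, a floor that covers counting error only. The LD-F1 libraries differed more from each other than the replicates of the other groups did, their chi-square divided by its degrees of freedom being 7.24 with LD-F1_b EVs, 26.1 with LD-F1 EVs and 3.71 with PBS over 8059 genes. Across those genes the log2 difference of replicate 2 over replicate 1 varied with gene length, with a Spearman's rho of -0.236 with LD-F1_b EVs, -0.521 with LD-F1 EVs and -0.00825 with PBS. These rho values are descriptions, since genes of a library pair are not independent. Of the 8 macrophage markers listed, 7 were in the table and 5 averaged over 1 CPM. Their summed level was 3123 to 3223 CPM with LD-F1_b EVs, 3185 to 3221 CPM with LD-F1 EVs and 2777 to 2789 CPM with PBS. Lists of markers of T and NK cells, B cells, neutrophils, fibroblasts, erythroid cells and mast cells each summed to under 1 CPM in every library. What part the replicate difference of LD-F1 or the marker level has in the results was not tested.

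In EV-treated macrophages most chaperone genes stayed near their PBS level. Those that rose included the ER J-proteins Dnajb11 and Dnajc10, the HSP70 family genes Hspa13 and Hspa1b and, with LD-F1 EVs, 3 subunits of TRiC. Those that fell were Dnajc9 with EVs of both kinds and, with LD-F1 EVs, Dnajc22 and the ER J-protein Dnajb14. With LD-F1_b EVs 6 of the 57 genes were higher and 1 was lower than with PBS. These 7 genes are 12.3% of the members, beside 11.0% of all 12740 genes tested that were called in either direction, 6.44% called higher and 4.54% called lower. With LD-F1 EVs 12 genes were higher and 3 were lower, 26.3% of the members beside 21.2% of all genes called in either direction, 11.4% called higher and 9.87% called lower. The share of members called lay near that of all genes in both comparisons. A call is an adjusted p under 0.05 in edgeR's quasi-likelihood F test, with Benjamini-Hochberg adjustment over all genes tested.

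The median log2 fold change of the members was 0.07 with LD-F1_b EVs and 0.16 with LD-F1 EVs, against 0.01 over all genes in each case. When libraries were scaled by their totals alone, the members' medians were -0.0017 and 0.05, beside -0.07 and -0.10 over all genes. That scaling also changed the split of all calls: 41.7% of them were higher with LD-F1_b EVs in place of 58.7%, and 33.6% with LD-F1 EVs in place of 53.5%. Of the 57 genes, 42 were called in neither comparison, and 41 lay within 0.5 log2 units of PBS in both. The EV groups were compared with the same PBS libraries, so their calls are not independent of each other. In bulk RNA, fewer cells that carry a transcript and less of it per cell cannot be told apart.

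**Figure D1:**
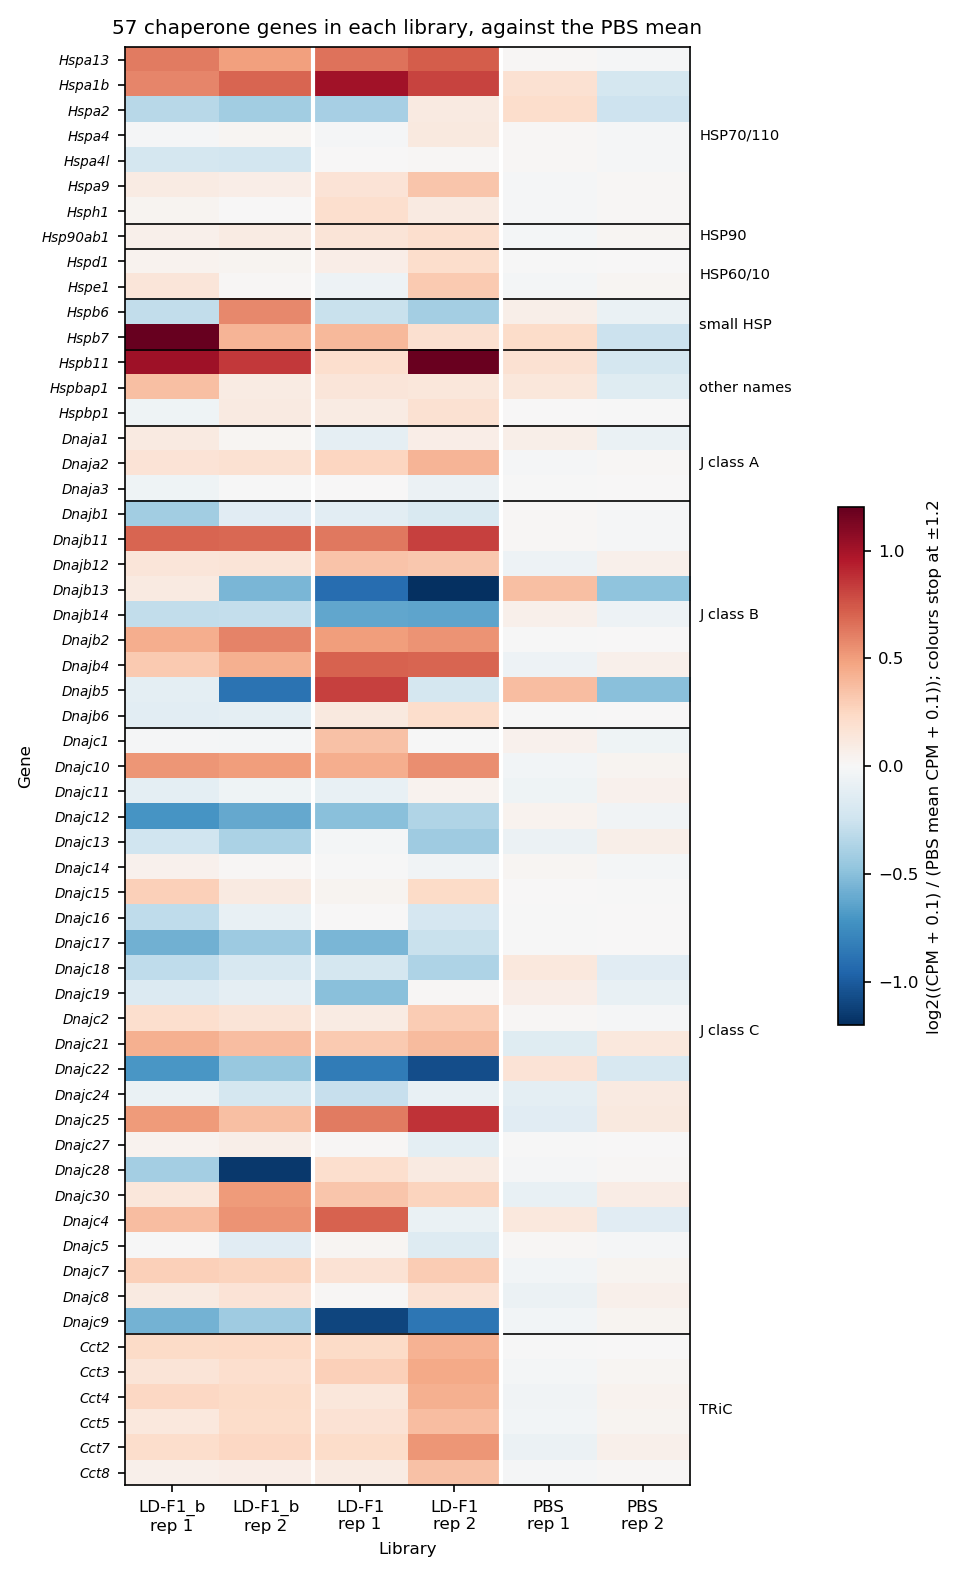
Log2 CPM of the 57 chaperone genes (rows, grouped by family) in the 6 libraries (columns, LD-F1_b, then LD-F1, then PBS), each gene shown relative to its mean over the PBS libraries (0.1 CPM added, colours limited at 1.2 log2 units). Most rows are pale, and Dnajb11, Dnajc10, Hspa13 and Hspa1b are higher in all 4 EV libraries.

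The HSP70 and HSP110 family held 7 members, of which 2 were higher in each comparison and 5 were not called. In each comparison that is 28.6% of the family, beside 11.0% of all genes called with LD-F1_b EVs and 21.2% with LD-F1 EVs. The difference from all genes was not tested. Hspa1b, the stress-inducible cytosolic HSP70, had 42.3 and 45.8 CPM with LD-F1_b EVs, 56.7 and 49.4 CPM with LD-F1 EVs, and 32.0 and 24.3 CPM with PBS. All 4 EV libraries lay above both PBS libraries. It was 1.57-fold higher with LD-F1_b EVs (log2 fold change 0.65 ± 0.14 SE, edgeR adjusted p = 0.011) and 1.88-fold higher with LD-F1 EVs (0.91 ± 0.14, edgeR adjusted p = 0.000588). Without PBS replicate 2 the value for LD-F1_b EVs was 0.46 (edgeR adjusted p = 0.192), while the call for LD-F1 EVs held under all 14 alternatives run. The entry (MGP_C57BL6NJ_G0024007, minus strand of chromosome 17, 36417181 to 36433579 in the table's positions) spans 16399 bases. Its count is uncertain, because this HSP70 has a near-identical neighbouring copy, Hspa1a, which no member entry names.

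Hspa13, also called Stch, is an HSP70-like ATPase of the microsomes that lacks the usual substrate-binding domain. It had 64.0 and 58.3 CPM with LD-F1_b EVs, 65.1 and 68.8 CPM with LD-F1 EVs, and 41.8 and 41.0 CPM with PBS, so that the lowest EV library lay well above both PBS libraries. The log2 fold changes were 0.56 ± 0.10 (edgeR adjusted p = 0.00402) with LD-F1_b EVs and 0.69 ± 0.10 (edgeR adjusted p = 0.000445) with LD-F1 EVs.

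The other members of the family were not called in either comparison with PBS. Hspa9, the mitochondrial HSP70 mortalin, had 926 and 909 CPM with LD-F1_b EVs, 965 and 1086 CPM with LD-F1 EVs, and 853 and 872 CPM with PBS, and its log2 fold change was 0.25 ± 0.09 with LD-F1 EVs (edgeR adjusted p = 0.059). Hsph1, an HSP110 that resets HSP70 and is itself heat-inducible, had 408 and 400 CPM with LD-F1_b EVs, 459 and 430 CPM with LD-F1 EVs, and 395 and 402 CPM with PBS. Only the LD-F1 libraries of Hsph1 lay apart from the rest, at a log2 fold change of 0.16 ± 0.08 (edgeR adjusted p = 0.201). The HSP110 relatives Hspa4 (0.00 with LD-F1_b EVs and 0.05 with LD-F1 EVs) and Hspa4l (-0.22 and 0.01) and the testis-enriched Hspa2 (-0.40 and -0.13, under 2 CPM) complete the family. The constitutive HSC70, HSPA8, is known in the table only by the description of an entry without a symbol. That entry, no member by the rule, had 2360 and 2907 CPM with LD-F1_b EVs, 3085 and 2634 CPM with LD-F1 EVs, and 2590 and 2528 CPM with PBS, with overlapping groups.

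Promoters were read from RefSeq windows of 250 bases before to 50 bases after each gene's start (build GRCm38.p6), which exist in the table used for 46 of the 57 members and 13 of the 15 called ones. Heat shock factors bind inverted repeats of GAA. The windows of Hspa1b, which was called, and of Hsph1 and Hspe1, which were not, are shown with the repeats in capitals: GAANNTTC in Hspa1b, and in the others 3 repeats in alternating direction (GAA, TTC and GAA, or TTC, GAA and TTC, with 2 bases between neighbours). The Hspa1b window is chr17:34959189-34959488 on the minus strand, that of Hsph1 is chr5:149636287-149636586 on the minus strand and that of Hspe1 is chr1:55087898-55088197 on the plus strand, all written 5′ to 3′.
Hspa1b: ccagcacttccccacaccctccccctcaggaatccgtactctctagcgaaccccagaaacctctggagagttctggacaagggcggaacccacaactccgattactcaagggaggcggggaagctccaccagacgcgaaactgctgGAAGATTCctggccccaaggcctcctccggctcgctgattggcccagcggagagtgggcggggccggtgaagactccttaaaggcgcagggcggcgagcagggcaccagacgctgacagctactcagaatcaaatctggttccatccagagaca
Hsph1: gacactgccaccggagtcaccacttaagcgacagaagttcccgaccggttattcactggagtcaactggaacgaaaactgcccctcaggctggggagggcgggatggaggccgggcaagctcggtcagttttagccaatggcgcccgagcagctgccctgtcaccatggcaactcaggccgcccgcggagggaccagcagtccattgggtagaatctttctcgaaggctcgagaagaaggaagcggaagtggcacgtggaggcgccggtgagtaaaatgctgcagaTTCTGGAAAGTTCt
Hspe1: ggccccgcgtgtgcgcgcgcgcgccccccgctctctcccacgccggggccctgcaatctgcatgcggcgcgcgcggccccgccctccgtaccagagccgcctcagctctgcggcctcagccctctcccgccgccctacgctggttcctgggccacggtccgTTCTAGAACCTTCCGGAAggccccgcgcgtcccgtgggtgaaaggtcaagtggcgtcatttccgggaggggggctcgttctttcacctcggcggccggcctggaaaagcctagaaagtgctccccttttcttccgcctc
The match of Hspa1b lies at bases 147 to 154 of its window, ahead of the start. The match of Hsph1 lies at bases 287 to 299, after the start, and Hspe1 holds 2 overlapping matches.

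The form with 3 repeats, searched on both strands, was found in the windows of Dnajb6, Hspd1, Hspe1 and Hsph1. They are 8.70% of the members matched, beside 0.662% of all 27025 genes with a window. None of these 4 genes was called in either comparison with PBS. Of all genes tested, 11.0% were called with LD-F1_b EVs and 21.2% with LD-F1 EVs. Hspd1 and Hspe1 lie head to head and their windows overlap by 285 bases, so they share their matches. The shorter form GAANNTTC, which is part of the longer one, was in 9 members (19.6%, beside 9.04% of all genes). Of these 9, Hspa1b and Cct2 were called in at least 1 comparison, as were 13 of all 46 members with a window. These matches describe letters in the windows, not bound sites.

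The single HSP90 member, Hsp90ab1, which encodes the constitutive cytosolic form, was the most abundant of the 57 genes per length, at 1131 CPM per kb in PBS, followed by Cct2 at 259 and Hspa9 at 219 CPM per kb. It had 3534 and 3642 CPM with LD-F1_b EVs, 3786 and 3896 CPM with LD-F1 EVs, and 3335 and 3448 CPM with PBS. The EV libraries lay above the PBS libraries by little, with log2 fold changes of 0.08 ± 0.08 (edgeR adjusted p = 0.587) with LD-F1_b EVs and 0.18 ± 0.08 (edgeR adjusted p = 0.139) with LD-F1 EVs. HSP90-alpha, the inducible form, is split in the table between an annotated entry without a symbol and an assembled locus, neither of them a member. The annotated entry was not called, at 0.06 ± 0.09 with LD-F1_b EVs and 0.23 ± 0.09 with LD-F1 EVs. The assembled locus was higher with LD-F1 EVs (0.35 ± 0.10, edgeR adjusted p = 0.0228) and not called with LD-F1_b EVs (0.10 ± 0.10).

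Hspd1 and Hspe1, the mitochondrial HSP60 and its HSP10 lid, were not called. Hspd1 had 778 and 774 CPM with LD-F1_b EVs, 798 and 871 CPM with LD-F1 EVs, and 753 and 756 CPM with PBS. Hspe1 had 321 and 293 CPM with LD-F1_b EVs, 276 and 360 CPM with LD-F1 EVs, and 284 and 295 CPM with PBS, so its LD-F1 libraries enclosed all the others. Among the small heat shock proteins Hspb6 and Hspb7 passed the minimum, both under 3 CPM in every library and neither called. Hspb11, a subunit of the intraflagellar transport machinery that carries a heat shock symbol, had 10.6 and 9.47 CPM with LD-F1_b EVs, 6.00 and 11.9 CPM with LD-F1 EVs, and 5.94 and 4.47 CPM with PBS. Its log2 fold changes of 0.95 ± 0.29 with LD-F1_b EVs and 0.79 ± 0.30 with LD-F1 EVs were the largest among uncalled members of at least 5 CPM.

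**Figure D2:**
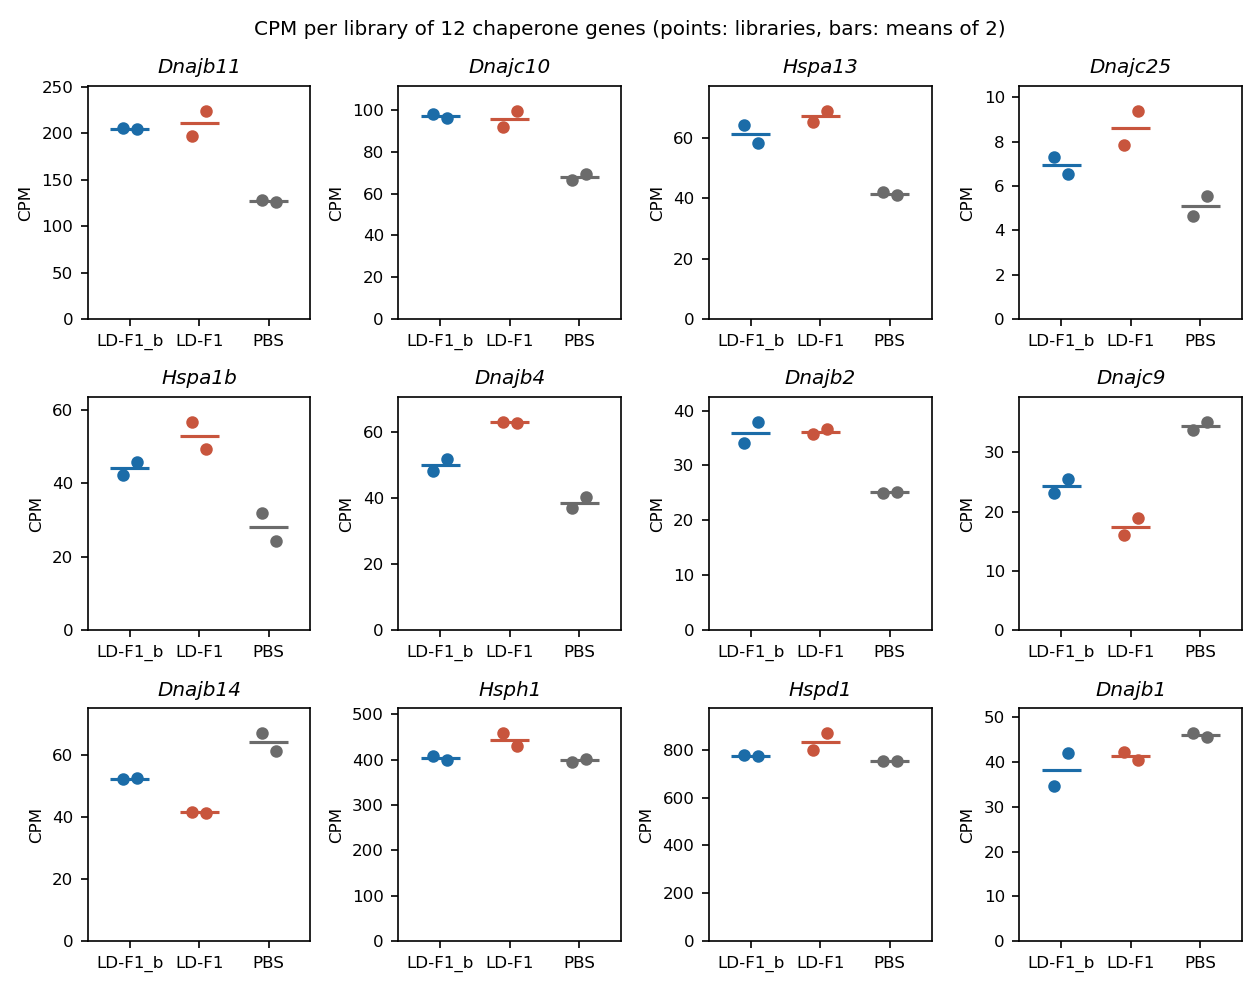
CPM of 12 chaperone genes in each library (points) with the group mean (bar), LD-F1_b left, LD-F1 in the middle and PBS right; the vertical scale of each panel starts at 0. Dnajb11, Dnajc10, Hspa13, Hspa1b and Dnajb2 lie higher in all 4 EV libraries than in PBS, Dnajc9 and Dnajb14 lie lower, and Hsph1 and Hspd1 differ little.

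J-proteins made up 36 of the 57 genes. With LD-F1_b EVs 4 of the 36 were higher and 1 was lower, and with LD-F1 EVs 7 were higher and 3 were lower. These are 13.9% and 27.8% of the J-proteins, beside 11.0% and 21.2% of all genes called. Of the 9 that are known to sit in the ER or its membrane, 2 were higher and 7 were not called with LD-F1_b EVs (22.2% called), and 4 were higher, 1 (Dnajb14) was lower and 4 were not called with LD-F1 EVs (55.6% called). Of the 7 of mitochondria, 0 were called in either comparison. The difference between these locations was not tested.

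Dnajb11 (ERdj3), a soluble J-protein of the ER that hands substrates to the ER HSP70 BiP, had the smallest adjusted p of all members in both comparisons. It had 206 and 204 CPM with LD-F1_b EVs, 197 and 224 CPM with LD-F1 EVs, and 128 and 126 CPM with PBS. The EV libraries of both kinds lay together, far above the PBS libraries. Dnajb11 was 1.61-fold higher with LD-F1_b EVs (log2 fold change 0.69 ± 0.09, edgeR adjusted p = 0.000391) and 1.66-fold higher with LD-F1 EVs (0.73 ± 0.09, edgeR adjusted p = 0.000112). Its entry (MGP_C57BL6NJ_G0023089) lies on the plus strand of chromosome 16 at 20825102 to 20846933 in the table's positions. The RefSeq window of Dnajb11, chr16:22857595-22857894 on the plus strand of GRCm38.p6, is shown for its 5 copies of the CCAAT box, all written on this strand as the reverse complement ATTGG, in capitals.
Dnajb11: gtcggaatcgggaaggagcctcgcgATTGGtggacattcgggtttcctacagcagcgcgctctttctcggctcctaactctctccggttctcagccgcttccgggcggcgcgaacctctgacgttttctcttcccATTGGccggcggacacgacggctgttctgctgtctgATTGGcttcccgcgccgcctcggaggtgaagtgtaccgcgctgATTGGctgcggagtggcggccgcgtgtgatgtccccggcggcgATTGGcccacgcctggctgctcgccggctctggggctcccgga
At least 5 copies, counted on both strands, were present in 89 of 32851 windows (0.271%). A single CCAAT was in 37.0% of the matched members and in 41.1% of all genes. The only form of ER stress element searched, CCAAT followed after 9 bases by CCACG, was in 0 members, beside 0.137% of all genes. Other spacings or orientations of these 2 parts, such as ATTGGcccacg at the last copy in the Dnajb11 window, were not searched. The amino acid response motif TGATGNAA was in 0 members, beside 4.51% of all genes.

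Dnajc10 (ERdj5), which reduces disulfide bonds of proteins bound for degradation, had 97.9 and 96.1 CPM with LD-F1_b EVs, 91.9 and 99.6 CPM with LD-F1 EVs, and 66.4 and 69.2 CPM with PBS. It was higher with LD-F1_b EVs (0.52 ± 0.09, edgeR adjusted p = 0.00379) and with LD-F1 EVs (0.50 ± 0.09, edgeR adjusted p = 0.0023), and the difference of LD-F1_b over LD-F1 EVs was 0.02. The related membrane proteins Dnajb12 and Dnajb14, which recruit cytosolic HSC70 to the ER surface, moved in opposite directions with LD-F1 EVs. Dnajb12 had 56.8 and 57.2 CPM with LD-F1_b EVs, 65.0 and 64.4 CPM with LD-F1 EVs, and 49.1 and 53.5 CPM with PBS, and it was higher with LD-F1 EVs (0.33 ± 0.10, edgeR adjusted p = 0.0314) and not called with LD-F1_b EVs (0.15 ± 0.10). Dnajb14 had 52.2 and 52.5 CPM with LD-F1_b EVs, 41.7 and 41.3 CPM with LD-F1 EVs, and 67.1 and 61.4 CPM with PBS. The 3 groups of Dnajb14 did not overlap, with PBS highest and LD-F1 lowest. It was lower with LD-F1 EVs (-0.63 ± 0.10, edgeR adjusted p = 0.000833) and not called with LD-F1_b EVs (-0.29 ± 0.10, edgeR adjusted p = 0.0856). Dnajc25, a membrane J-protein, had 7.30 and 6.56 CPM with LD-F1_b EVs, 7.87 and 9.39 CPM with LD-F1 EVs, and 4.63 and 5.54 CPM with PBS, and it was higher with LD-F1 EVs (0.76 ± 0.22, edgeR adjusted p = 0.0264) and not called with LD-F1_b EVs (0.44 ± 0.22).

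The 4 ER chaperones outside the member rule were higher in both comparisons. The log2 fold changes with LD-F1_b EVs and with LD-F1 EVs were 1.66 and 1.84 for Hspa5, which encodes BiP, and 1.18 and 1.28 for Hsp90b1, the ER form of HSP90. They were 1.24 and 1.14 for the J-protein Dnajc3 (p58IPK) and 1.41 and 1.56 for the J-protein Dnajb9 (ERdj4). With LD-F1 EVs each of these values lay above those of all 57 members. With LD-F1_b EVs the lowest, that of Hsp90b1, lay above all members except Hspb7 (1.22 ± 0.63, not called), which had 0.441 to 1.81 CPM.

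Among J-proteins of the cytosol and nucleus, the class B genes Dnajb4 and Dnajb2 were higher with EVs of both kinds. Dnajb4 (HLJ1) had 48.2 and 52.0 CPM with LD-F1_b EVs, 63.1 and 62.9 CPM with LD-F1 EVs, and 37.0 and 40.3 CPM with PBS. Its 3 groups did not overlap, with log2 fold changes of 0.37 ± 0.11 with LD-F1_b EVs (edgeR adjusted p = 0.0396) and 0.70 ± 0.10 with LD-F1 EVs (edgeR adjusted p = 0.00046). Dnajb2 (HSJ1), which also binds ubiquitin, had 34.1 and 37.9 CPM with LD-F1_b EVs, 35.7 and 36.6 CPM with LD-F1 EVs, and 25.0 and 25.2 CPM with PBS. It was higher by 0.52 ± 0.12 with LD-F1_b EVs (edgeR adjusted p = 0.0127) and by 0.53 ± 0.12 with LD-F1 EVs (edgeR adjusted p = 0.0067), with no overlap between EV and PBS libraries. Dnajb1, the main heat-inducible J-protein of the cytosol, had 34.6 and 41.9 CPM with LD-F1_b EVs, 42.2 and 40.5 CPM with LD-F1 EVs, and 46.5 and 45.6 CPM with PBS. All 4 EV libraries of Dnajb1 lay below PBS, and neither comparison was called (-0.27 ± 0.12 and -0.16 ± 0.12). Dnajb6, a suppressor of protein aggregation, was at -0.12 with LD-F1_b EVs and 0.17 with LD-F1 EVs, and neither value was called.

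Of the 3 class A genes, Dnaja2, a partner of cytosolic HSC70, was higher with LD-F1 EVs. It had 334 and 339 CPM with LD-F1_b EVs, 357 and 395 CPM with LD-F1 EVs, and 296 and 300 CPM with PBS, with log2 fold changes of 0.17 ± 0.08 (edgeR adjusted p = 0.226) with LD-F1_b EVs and 0.34 ± 0.08 (edgeR adjusted p = 0.0134) with LD-F1 EVs. Dnaja1, its farnesylated relative, had 170 and 160 CPM with LD-F1_b EVs, 146 and 167 CPM with LD-F1 EVs, and 165 and 149 CPM with PBS, with overlapping groups. Dnaja3, the mitochondrial class A protein, was also not called, at 102 to 107 CPM in all libraries.

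Class C is the largest group, with 24 genes of varied function, and its median log2 fold change was -0.04 with LD-F1_b EVs and -0.02 with LD-F1 EVs. Besides Dnajc10 and Dnajc25, the called genes were Dnajc9 and Dnajc22, both lower. Dnajc9, a J-protein that acts as a histone chaperone, had 23.2 and 25.6 CPM with LD-F1_b EVs, 16.0 and 18.8 CPM with LD-F1 EVs, and 33.7 and 35.2 CPM with PBS. The 3 groups of Dnajc9 did not overlap. Dnajc9 was the only member lower with EVs of both kinds, by -0.50 ± 0.13 on the log2 scale with LD-F1_b EVs (edgeR adjusted p = 0.0278) and -0.98 ± 0.13 with LD-F1 EVs (edgeR adjusted p = 0.000249). Its entry (MGP_C57BL6NJ_G0021418) lies on the minus strand of chromosome 14 at 13635020 to 13639292. Dnajc22, whose fly relative Wurst acts in endocytosis, had 2.50 and 2.97 CPM with LD-F1_b EVs, 2.25 and 1.92 CPM with LD-F1 EVs, and 4.63 and 3.59 CPM with PBS, and its call with LD-F1 EVs (-0.98 ± 0.32, edgeR adjusted p = 0.0456) rests on few counts.

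The other 20 class C genes were called in neither comparison. Dnajc21, a factor of ribosome biogenesis, came nearest to a call with LD-F1_b EVs, at 42.1 and 40.3 CPM with LD-F1_b EVs, 38.9 and 40.5 CPM with LD-F1 EVs, and 28.3 and 34.2 CPM with PBS (0.40, edgeR adjusted p = 0.0556). Dnajc7, which shuttles substrates between HSP70 and HSP90, had 134 and 131 CPM with LD-F1_b EVs, 123 and 135 CPM with LD-F1 EVs, and 107 and 112 CPM with PBS (0.28 and 0.24). In both genes the EV libraries lay above the PBS libraries without passing the test. The synaptic vesicle protein Dnajc5 differed little, at -0.07 with LD-F1_b EVs and -0.06 with LD-F1 EVs. Dnajc13, an endosomal protein, was at -0.31 with LD-F1_b EVs and -0.21 with LD-F1 EVs. Over the 35 members of at least 5 CPM called in neither comparison, log2 fold changes ranged between -0.51 and 0.95 with LD-F1_b EVs and between -0.41 and 0.79 with LD-F1 EVs.

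**Figure D3:**
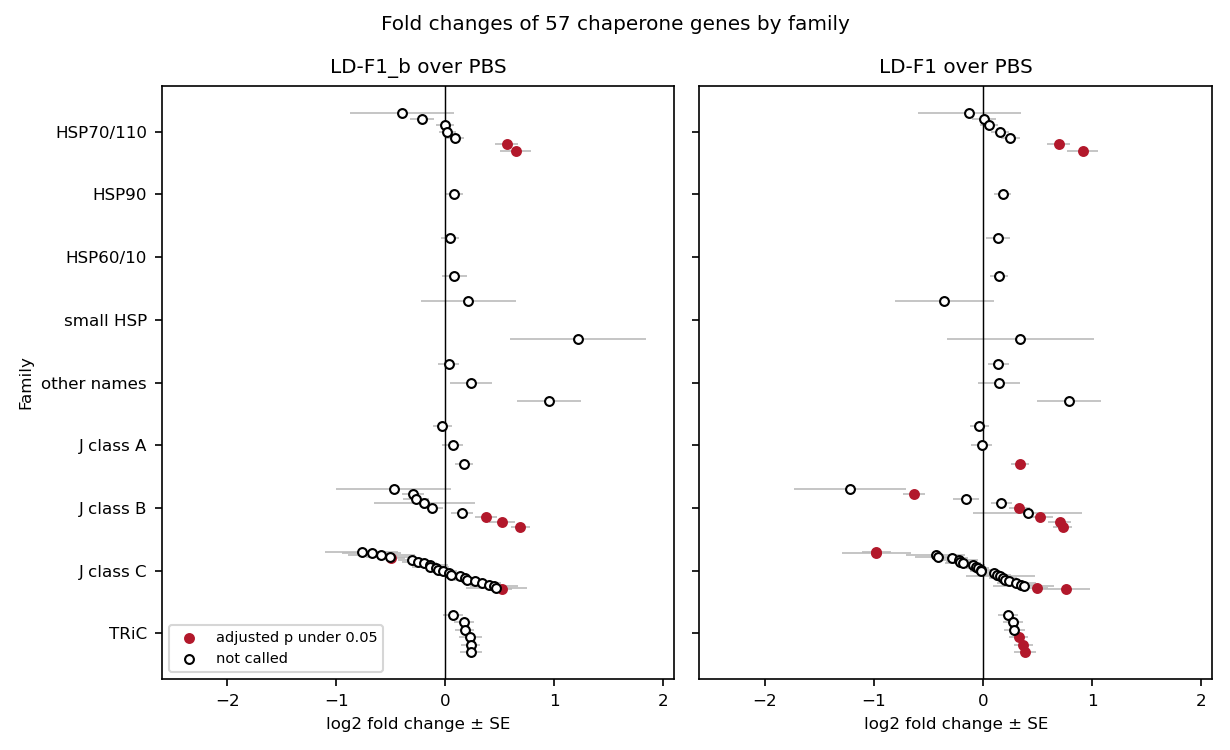
Log2 fold change ± SE of the 57 genes over PBS, by family (rows), for LD-F1_b EVs (left) and LD-F1 EVs (right); filled red points have an adjusted p under 0.05. The 6 TRiC subunits form a tight group right of 0, at 0.07 to 0.24 with LD-F1_b EVs and 0.23 to 0.38 with LD-F1 EVs, while the J-proteins spread to both sides.

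The 6 TRiC subunits among the members shared small positive differences. With LD-F1_b EVs none was called, and the log2 fold changes ranged between 0.07 and 0.24 with a median of 0.21. With LD-F1 EVs Cct2, Cct3 and Cct7 were higher, and the 6 values ranged between 0.23 and 0.38 with a median of 0.31. The share of the 6 called was 0% with LD-F1_b EVs and 50% with LD-F1 EVs, beside 11.0% and 21.2% of all genes. The difference from all genes was not tested. Scaled by library totals alone, the 6 values ranged between -0.0017 and 0.16 with LD-F1_b EVs, where Cct8 was the 1 below 0, and between 0.13 and 0.28 with LD-F1 EVs, where Cct2 and Cct7 lost their calls and Cct3 kept its call.

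Cct3 had 538 and 556 CPM with LD-F1_b EVs, 589 and 660 CPM with LD-F1 EVs, and 474 and 491 CPM with PBS, and its log2 fold change with LD-F1 EVs was 0.37 ± 0.09 (edgeR adjusted p = 0.00922). Cct2 had 597 and 599 CPM with LD-F1_b EVs, 598 and 677 CPM with LD-F1 EVs, and 506 and 511 CPM with PBS (0.33 ± 0.09 with LD-F1 EVs, edgeR adjusted p = 0.0185). Cct7 had 467 and 478 CPM with LD-F1_b EVs, 470 and 580 CPM with LD-F1 EVs, and 384 and 420 CPM with PBS (0.38 ± 0.10 with LD-F1 EVs, edgeR adjusted p = 0.0204). In all 3 of these genes each EV library lay above each PBS library, and LD-F1 replicate 2 was the highest. The subunits not called with LD-F1 EVs were Cct4 (0.29, edgeR adjusted p = 0.0588), Cct5 (0.27, edgeR adjusted p = 0.0534) and Cct8 (0.23, edgeR adjusted p = 0.105). Tcp1, the alpha subunit, whose symbol lies outside the member rule, was at 0.17 with LD-F1_b EVs and was higher with LD-F1 EVs (0.28 ± 0.09, edgeR adjusted p = 0.043). The zeta subunit Cct6a, annotated in the table as a processed transcript and so no member, was not called (0.08 and 0.24).

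All 6 subunits were higher in LD-F1 replicate 2 than in LD-F1 replicate 1, by 0.16 to 0.31 on the log2 scale with a median of 0.22. The median difference of replicate 2 over replicate 1 was 0.03 with LD-F1_b EVs and 0.06 with PBS. Without LD-F1 replicate 1 the 6 values with LD-F1 EVs were 0.35 to 0.53. Without LD-F1 replicate 2 the 6 values were 0.10 to 0.28. With the LD-F1_b and PBS libraries alone in the fit, 5 of the 6 subunits, all but Cct8, were called with LD-F1_b EVs. Calls over all genes rose as well, to 3098 in that fit from 1398 in the fit of all 6 libraries. Why these calls depend on the LD-F1 libraries was not tested.

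**Figure D4:**
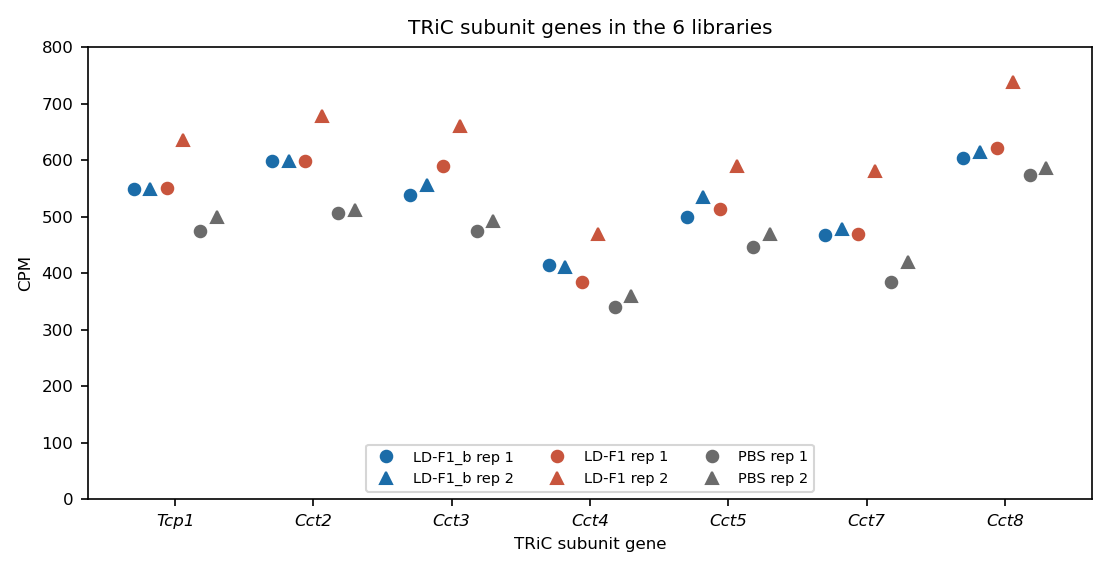
CPM of the 6 TRiC subunits and of Tcp1 in each library, LD-F1_b left, LD-F1 in the middle and PBS right within each gene (circles for replicate 1, triangles for replicate 2). For every gene the higher LD-F1 library is replicate 2, and both PBS libraries lie below all EV libraries.

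Between the EV groups 0 of the 57 genes were called, beside 0.424% of all genes called in either direction, 0.0157% called higher and 0.408% called lower with LD-F1_b EVs than with LD-F1 EVs. At an unadjusted p under 0.05, edgeR marked 6 members and DESeq2 marked 5, and DESeq2 called 0. How many of all genes passed that unadjusted threshold was not counted, so these numbers describe the members alone. The smallest adjusted p was 0.237, for Dnajc9, whose log2 fold change of LD-F1_b over LD-F1 EVs was 0.48 ± 0.14. It was followed by Dnajb14 (0.34 ± 0.10, edgeR adjusted p = 0.299) and Dnajb4 (-0.33, edgeR adjusted p = 0.318). In each of these 3 genes both LD-F1_b libraries lay between the LD-F1 and the PBS libraries. Of the 15 genes called in either comparison with PBS, 8 were called with LD-F1 EVs alone, and none of these 8 differed between the EV groups by the test. The median of the members was -0.05. That median became -0.12 without LD-F1 replicate 1 and 0.0074 without LD-F1 replicate 2. Without LD-F1 replicate 2, the log2 fold change of Dnajc9 for LD-F1_b over LD-F1 EVs was 0.61.

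Co-chaperones and heat shock factors outside the members were counted from a list of 51 genes, of which 47 were in the table and not members and 45 were tested. With LD-F1_b EVs 1 was higher and 1 lower (4.44% called, beside 11.0% of all genes), with a median log2 fold change of 0.02. With LD-F1 EVs 3 were higher and 1 lower (8.89% called, beside 21.2% of all genes), with a median of 0.06, and between the EV groups 0 were called. Sec63, the J-domain protein of the ER translocon, had 136 and 124 CPM with LD-F1_b EVs, 133 and 125 CPM with LD-F1 EVs, and 99.1 and 103 CPM with PBS. It was higher with LD-F1_b EVs (0.37 ± 0.09, edgeR adjusted p = 0.0215) and with LD-F1 EVs (0.35 ± 0.09, edgeR adjusted p = 0.0154). Fkbp5, an HSP90 co-chaperone that glucocorticoids induce, had 134 and 121 CPM with LD-F1_b EVs, 120 and 129 CPM with LD-F1 EVs, and 160 and 162 CPM with PBS, and was lower by -0.34 ± 0.09 (edgeR adjusted p = 0.0292) and -0.37 ± 0.09 (edgeR adjusted p = 0.0116). The other calls with LD-F1 EVs were Tcp1, given above, and the prefoldin subunit Pfdn6 (0.39 ± 0.13, edgeR adjusted p = 0.0489). With library totals alone, or without either PBS library, 0 genes of the list were higher in either comparison, so the calls of Sec63, Tcp1 and Pfdn6 were lost, and that of Sec63 with LD-F1_b EVs was also lost without either LD-F1_b library. The call of Fkbp5 was lost in both comparisons without either PBS library, and with LD-F1_b EVs without either LD-F1_b library, since 0 genes of the list were then lower.

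Heat shock factor 1 itself, Hsf1, had 55.3 and 60.7 CPM with LD-F1_b EVs, 55.0 and 54.6 CPM with LD-F1 EVs, and 55.9 and 54.2 CPM with PBS, and was not called. Bag3, an HSP70 exchange factor that heat shock factor 1 induces, was at 0.02 ± 0.10 with LD-F1_b EVs and -0.03 ± 0.10 with LD-F1 EVs. Stip1 (HOP), which links HSP70 to HSP90, was also not called, at -0.12 ± 0.10 and -0.13 ± 0.10. Some known heat-inducible genes, selected here without a fixed list and not all of them, stand side by side with different values. Hspa1b was higher with EVs of both kinds. For HSP90-alpha the assembled locus was higher with LD-F1 EVs, while the annotated entry was called with neither kind. Dnajb1, Hsph1, Bag3, Hspd1 and Hspe1 were also called with neither.

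Of the 15 called members, 6 kept their call with LD-F1 EVs under all 14 alternatives: Dnajb11, Dnajb14, Dnajb4, Dnajc9, Hspa13 and Hspa1b. With LD-F1_b EVs Dnajb11 alone did. The calls of Dnajb2, Dnajb4, Dnajc10 and Dnajc9 with LD-F1_b EVs were lost without any one of the LD-F1_b or PBS libraries (that of Dnajb4 also with library totals alone and by DESeq2), that of Hspa13 without LD-F1_b replicate 1 or either PBS replicate, and that of Hspa1b without PBS replicate 2 or a library of LD-F1_b. With LD-F1 EVs, Dnajc10 was lost without PBS replicate 1, Dnajb2 and Cct3 without either PBS replicate, and Dnaja2 without either PBS replicate or with library totals alone. Dnajb12, Dnajc22, Dnajc25, Cct2 and Cct7 each lost their call under 5 to 8 of the 14 alternatives. These include leaving out either PBS replicate, either LD-F1_b replicate (all but Dnajc25) and LD-F1 replicate 2 (Dnajc22 and Dnajc25). How many members were called higher than with PBS depended on which library was left out. In both comparisons the number of all genes called moved in the same direction as the number of members called higher. No called value changed sign. Among the 15, Dnajb14 and Cct7 are overlapped by another entry with counts, which amounted to 2.07% (same strand) and 1.18% (Pradc1, opposite strand) of their own.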

How the data were processed

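The authors deposited raw read counts per gene, whole numbers without normalisation, for 6 libraries. Per the submitters' processing notes, reads passed through featureCounts 1.5.0-p3, StringTie 1.3.3b, HISAT2 2.0.5 and fastp, named there without order, with build GRCm39. The table's gene identifiers are those of the C57BL/6NJ annotation, and printed positions are the table's. Whether counting used strand or multiply mapped reads is not stated in the labels, so genes with close copies or opposite-strand overlaps are uncertain. The table has 0 summary entries, and 0 per-sample columns stayed unmatched.

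Counts were tested with edgeR 4.0.16 (R 4.3.3): filterByExpr, TMM factors, a mean per group over all 6 libraries with 3 residual degrees of freedom, robust quasi-likelihood F tests and Benjamini-Hochberg adjustment over 12740 genes, called under 0.05. The code was tested on simulated counts. Errors are standard errors (SE) of log2 fold changes, computed back from the test. The alternatives were other scaling and filters, DESeq2 1.42.0, a non-robust spread, a replicate block, only the groups compared, a threshold of 0.01 and each library left out. The members and lists were chosen with earlier results of these data known. Named are all called members, a set list of major chaperones, and, chosen after their values were seen, Hspb11, Hspb7, Hspa2, Hspa4, Hspa4l, Dnaja3, Dnajb6, Dnajc5, Dnajc7, Dnajc13 and Dnajc21. Motifs were counted in RefSeq promoter windows (GRCm38.p6), 250 bases before to 50 bases after the start.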

Additional observations from a re-analysis of the deposited data

How the results depend on the processing

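Precision is limited by 2 libraries per group. They leave 3 residual degrees of freedom per gene, to which the test adds spread shared across genes. With LD-F1 EVs Hspb11 was not called at a log2 fold change of 0.79 ± 0.30, whereas Dnajb12 was called at 0.33 ± 0.10. Hspb11 had 700 counts in all, and its LD-F1 libraries differed, at 6.00 and 11.9 CPM. Dnajc25, with 596 counts, was called at 0.76 ± 0.22. What part depth has in these errors was not tested. Of 22 called values of named members, 7 held under all 14 alternatives and 0 reversed. With only the LD-F1_b and PBS libraries fitted, 16 members were higher and 3 lower, 3098 genes were called, and 5 co-chaperones were higher and 3 lower. A threshold of 0.01 left 3 members higher and 0 lower with LD-F1_b EVs (671 genes), 7 higher with LD-F1 EVs (1497 genes), 0 co-chaperones in either direction, and 29 genes between the EV groups. With library totals alone 2 members were lower with LD-F1_b EVs, co-chaperones counted 0 higher and 2 lower with LD-F1_b EVs and 0 higher and 3 lower with LD-F1 EVs, and the members' medians were -0.0017, 0.0525 and, between the EV groups, -0.0204. Without a filter 2 members were lower with LD-F1_b EVs, co-chaperones counted 2 higher and 2 lower with LD-F1_b EVs and 5 higher and 2 lower with LD-F1 EVs, and 185 genes differed between the EV groups. That number was 97 by DESeq2 and 33 with only those groups fitted. Co-chaperones lower with LD-F1 EVs were 2 with DESeq2 size factors, with at least 1 CPM in 2 libraries or with a non-robust spread, and 1 was higher with only those groups fitted. Deviations of same-numbered replicates correlated weakly between groups (0.0837 for LD-F1_b and LD-F1, 0.00358 for LD-F1_b and PBS, -0.0234 for LD-F1 and PBS). With 1 replicate difference per group, these values cannot decide whether the libraries were paired. With a replicate block, co-chaperones lower with LD-F1_b EVs were 2, members were 6 higher and 1 lower with LD-F1_b EVs and 13 higher and 2 lower with LD-F1 EVs. Leaving out 1 library at a time gave, for LD-F1_b EVs, 1 to 16 members higher, 0 to 3 lower, medians of 0.0541 to 0.082, 401 to 3142 genes called, and co-chaperones 0 to 5 higher and 0 to 3 lower. For LD-F1 EVs it gave 4 to 23 members higher, 2 to 4 lower, medians of 0.1002 to 0.1754, 1213 to 4497 genes called, and co-chaperones 0 to 12 higher and 0 to 8 lower. Between the EV groups it gave 0 to 1 members higher, 0 to 7 lower, medians of -0.1219 to 0.0074, 0 to 1152 genes called and 0 to 3 co-chaperones lower. The causes of these differences were not tested.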
